A study of Mus musculus with 7 samples.

Results

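The genes described here belong to the enzyme families that attach ubiquitin to proteins or take it off again, in a table of testis transcripts that differed between wild-type mice and mice lacking *Ctcf* in male germ cells. They were chosen by their names, with no use of their values in the rule, though earlier results of these data were known when the families were picked. A row of the deposited table was taken when the array annotation classed it as Coding or Complex and its first gene symbol began with Usp, Ube, Rnf, Fbxo, Fbxw, Fbxl, Klhl, Trim, Asb, Herc, Cul or March. A pair of rows whose symbols had been turned into plain numbers were read as *March11* and *March10*, whose positions they hold, and names starting with Culc were left out. This gave 63 genes among 4102 coding rows and 7580 rows in all. The positions of all 63 overlapped the RefSeq gene of the same name in GRCm38.p6. One further row, listed as *4933422H20Rik*, is named *Trim80* in RefSeq and was not counted. RNA of seminiferous tubules came from 3 mice of the wild-type group and 4 of the *Ctcf*-cKO group, each on its own Affymetrix mouse transcriptome array, and the samples are titled testes. The study's mice had a C56BL/6J background and were 12 to 15 weeks old. *Ctcf*-cKO mice carried the *Stra8-iCre* transgene, 1 excised *Ctcf* allele and 1 floxed *Ctcf* allele, and the wild-type group stands for littermates listed without the transgene, whose *Ctcf* alleles were f/f, wt/f or wt/wt. The *Stra8* promoter drives Cre in spermatogonia and pre-leptotene spermatocytes, and CTCF protein is still made in the Sertoli, Leydig and spermatogonial cells of these mice. *Ctcf* itself has no row among the 7580, so the deletion could not be checked from these values. The paper checked it at the protein level. It reports less CTCF in testis extracts by immunoblot and no CTCF staining in spermatocytes and spermatids.

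Ubiquitin reaches its target through a relay. An E1 enzyme activates it, an E2 conjugating enzyme (the Ube2 genes) carries it, and an E3 ligase brings E2 and target together. Rnf, March and most Trim proteins are RING ligases, which bind the E2 themselves, whereas F-box, Klhl and Asb proteins are adaptors that hold targets on cullin-based ligases. Usp proteins are deubiquitinases, which cleave ubiquitin off. Male germ cells use this system heavily, in the meiotic cell cycle, in the removal of histones before protamine packaging and in the shedding of cytoplasm from elongating spermatids, and many family members have forms that are made mainly in the testis.

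Sequences are shown for close relatives within the families whose rows differed between genotypes in the same or in opposite directions. Each is the RefSeq promoter window of GRCm38.p6, 250 bases before and 50 bases after the annotated start, read 5′ to 3′ on the gene's strand. *Ube2dnl1* and *Ube2dnl2*, neighbouring E2-like copies on the X chromosome, were both lower in *Ctcf*-cKO. Capitals mark their longest shared run, 47 bases.
*Ube2dnl1* (chrX:114904762-114905061, plus strand): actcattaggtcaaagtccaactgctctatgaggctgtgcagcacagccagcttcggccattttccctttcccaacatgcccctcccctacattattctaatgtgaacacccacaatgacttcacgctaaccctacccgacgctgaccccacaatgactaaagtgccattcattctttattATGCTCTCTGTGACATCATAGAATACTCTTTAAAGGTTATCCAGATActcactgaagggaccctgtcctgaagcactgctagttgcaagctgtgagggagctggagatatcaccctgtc
*Ube2dnl2* (chrX:114907332-114907631, plus strand): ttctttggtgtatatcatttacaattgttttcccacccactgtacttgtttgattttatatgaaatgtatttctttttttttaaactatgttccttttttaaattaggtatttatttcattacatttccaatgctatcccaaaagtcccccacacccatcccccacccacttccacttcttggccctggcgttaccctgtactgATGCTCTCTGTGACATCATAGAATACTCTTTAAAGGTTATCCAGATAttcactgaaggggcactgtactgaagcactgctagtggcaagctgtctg
From the first base of that run to the end of the *Ube2dnl2* window, 89 of 96 bases matched (92.7%). Of the 181 bases before the run 53 matched at the same offset (29.3%). The copies are therefore alike around the start and differ upstream. Where their transcripts are alike too, array probes cannot tell them apart, so their values are uncertain.

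*Rnf148*, *Rnf133*, *Rnf13* and *Rnf130* are the family members annotated with a protease-associated (PA) domain, the lumenal part of a group of membrane-anchored RING ligases. The first pair was lower and the second pair higher in *Ctcf*-cKO. *Ube2d2b* and *Ube2d1* are likewise E2 enzymes of the Ube2d type, the former lower and the latter higher. Capitals in these windows mark CG dinucleotides.
*Rnf148* (chr6:23655087-23655386, minus strand): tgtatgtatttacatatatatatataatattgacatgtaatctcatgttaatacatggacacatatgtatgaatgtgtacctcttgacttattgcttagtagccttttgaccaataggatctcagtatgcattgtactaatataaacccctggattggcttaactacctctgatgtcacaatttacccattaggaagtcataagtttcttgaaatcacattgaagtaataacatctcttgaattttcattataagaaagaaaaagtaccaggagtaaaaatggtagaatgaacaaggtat
*Rnf133* (chr6:23650256-23650555, minus strand): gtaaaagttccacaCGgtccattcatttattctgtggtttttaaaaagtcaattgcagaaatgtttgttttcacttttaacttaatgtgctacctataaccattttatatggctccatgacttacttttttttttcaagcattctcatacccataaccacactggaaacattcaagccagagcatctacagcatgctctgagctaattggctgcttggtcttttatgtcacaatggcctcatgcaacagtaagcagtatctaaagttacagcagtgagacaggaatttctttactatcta
*Rnf13* (chr3:57735807-57736106, plus strand): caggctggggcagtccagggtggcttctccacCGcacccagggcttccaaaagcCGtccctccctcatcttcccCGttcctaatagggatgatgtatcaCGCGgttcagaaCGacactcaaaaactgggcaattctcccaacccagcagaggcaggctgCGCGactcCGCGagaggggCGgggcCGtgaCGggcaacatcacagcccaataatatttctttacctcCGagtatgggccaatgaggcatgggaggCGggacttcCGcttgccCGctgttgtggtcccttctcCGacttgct
*Rnf130* (chr11:50025081-50025380, plus strand): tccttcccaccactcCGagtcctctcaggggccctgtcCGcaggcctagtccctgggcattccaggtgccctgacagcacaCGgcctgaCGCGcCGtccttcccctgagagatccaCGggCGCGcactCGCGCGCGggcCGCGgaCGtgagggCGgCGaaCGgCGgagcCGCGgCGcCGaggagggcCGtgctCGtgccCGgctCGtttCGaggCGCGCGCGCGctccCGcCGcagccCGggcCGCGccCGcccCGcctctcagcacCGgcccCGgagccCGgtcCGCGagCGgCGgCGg
*Ube2d2b* (chr5:107829912-107830211, plus strand): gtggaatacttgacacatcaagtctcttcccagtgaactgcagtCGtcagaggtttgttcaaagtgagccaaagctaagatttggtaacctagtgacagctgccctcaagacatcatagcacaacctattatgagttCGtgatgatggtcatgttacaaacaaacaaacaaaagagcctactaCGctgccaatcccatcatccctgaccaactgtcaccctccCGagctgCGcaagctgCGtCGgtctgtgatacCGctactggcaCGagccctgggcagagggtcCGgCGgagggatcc
*Ube2d1* (chr10:71285213-71285512, minus strand): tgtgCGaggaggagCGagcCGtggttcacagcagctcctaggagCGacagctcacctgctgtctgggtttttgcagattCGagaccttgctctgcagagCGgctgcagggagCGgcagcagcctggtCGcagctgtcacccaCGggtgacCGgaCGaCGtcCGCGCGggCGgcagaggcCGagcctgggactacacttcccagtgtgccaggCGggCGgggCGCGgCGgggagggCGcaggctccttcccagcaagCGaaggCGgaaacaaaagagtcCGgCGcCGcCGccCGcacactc
The *Rnf148* window holds 0 CG and the *Rnf133* window 1, against 18 for *Rnf13* and 49 for *Rnf130*. In the Ube2d pair the numbers are 11 for *Ube2d2b* and 30 for *Ube2d1*.

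Most family genes in the table were lower in *Ctcf*-cKO: 45 of the 63 (71.4%) were lower and 18 (28.6%) were higher. Over all 4102 coding rows, 62.1% were lower and 37.9% higher. The exact binomial 95% interval of the family's lower share, from 58.7% to 82.1%, covers counting error only and includes the share of all coding rows. The families also had a row about as often as other genes. Of 411 RefSeq protein-coding genes with these prefixes, 64 matched a coding row by gene identifier, *Trim80* included, which is 15.6%, and of all 21896 RefSeq protein-coding genes 15.4% did. Each value below is the authors' average of the log2 signal over the mice of a genotype, and each difference is *Ctcf*-cKO minus wild-type on the log2 scale. The table has no values of single mice, so neither a spread between mice nor a test could be given. It lists only transcripts past a linear fold of 2, which is why no difference is smaller than 1.0 in size. Nothing can be said here of genes that are not listed. After subtraction of the median difference of the whole table, -1.145, 32 family genes were below and 31 above it (50.8% below). Only rows past the fold limit are listed, so this median lies among the lower rows and is not a zero point. The split around it therefore does not measure direction. In the class Coding alone 26 were lower and 1 higher (96.3% lower, against 75.9% of all rows of that class). In RNA from whole tubules, fewer cells of a type and less RNA per cell cannot be told apart.

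**Figure D1:**
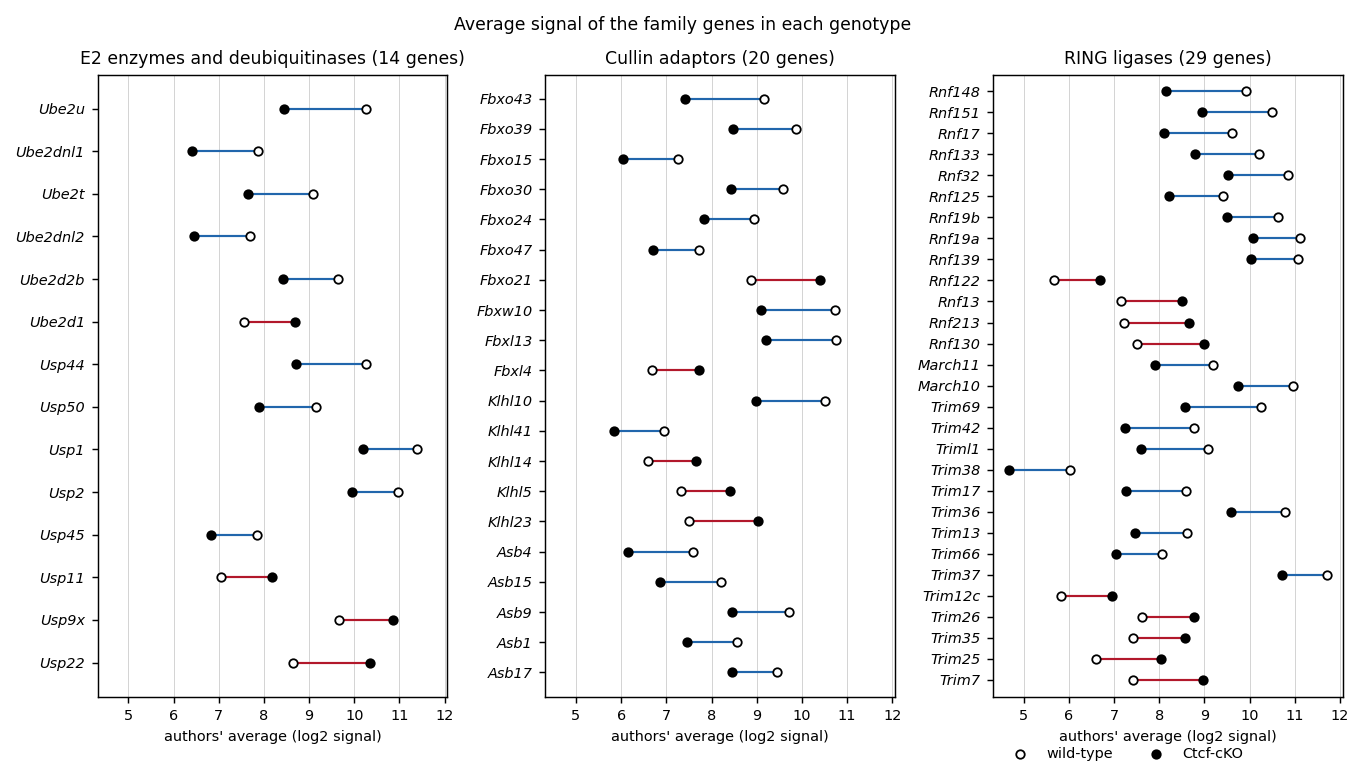
Authors' average log2 signal (horizontal axis) of each of the 63 family genes in wild-type (open circles) and *Ctcf*-cKO (filled circles), in 3 panels by role, with blue lines for genes lower in *Ctcf*-cKO and red lines for genes higher. All 5 Asb genes and both March genes are lower, and 3 of the 5 Klhl genes are higher, beside 62.1% lower and 37.9% higher of all coding rows. No error bars are drawn because the table has no values of single mice.

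Sizes were close to those of the whole table for the lower genes and smaller for the higher genes. The median difference of the 45 lower genes was -1.26, beside -1.29 for all lower coding rows. For the 18 higher genes it was 1.17, beside 1.33 for all higher coding rows. Past a linear fold of 3 there were 5 lower genes (11.1%, against 12.7% of lower coding rows), namely *Ube2u*, *Rnf148*, *Fbxo43*, *Trim69* and *Fbxw10*. On the higher side 1 gene, *Usp22*, passed it (5.56%, against 26.7% of higher coding rows). At the other end, *Trim37* and *Asb17* lay nearest to the table's limit with differences of -1.0 each, and *Fbxl4* and *Rnf122* with 1.03 each.

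**Figure D2:**
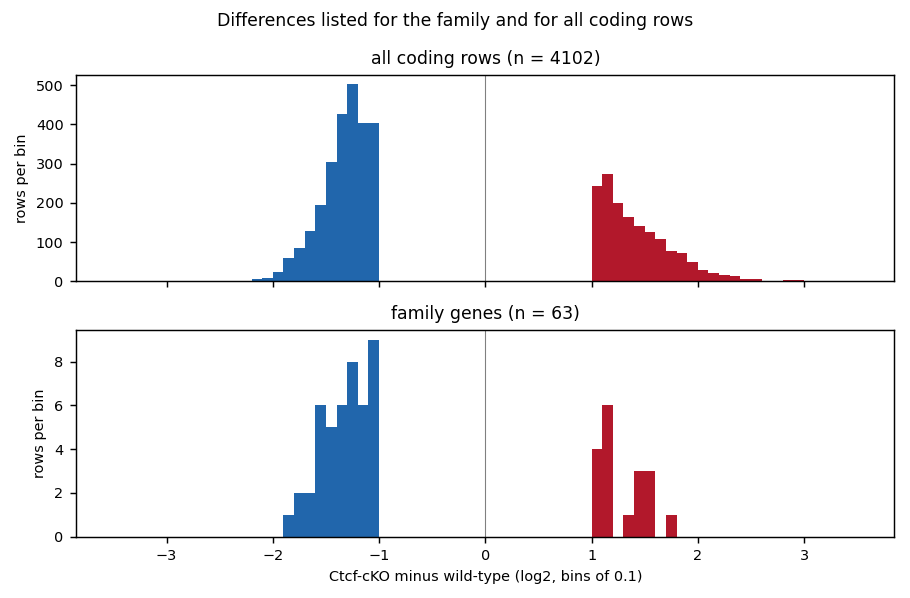
Number of rows (vertical axes) by difference between *Ctcf*-cKO and wild-type (horizontal axis, log2, bins of 0.1) for all 4102 coding rows above and the 63 family genes below, blue for lower and red for higher. The family's differences run from -1.80 to 1.70, and the gap in the middle is the authors' limit of a linear fold of 2.

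E2 enzymes come first. Of 42 RefSeq Ube genes 6 had a row, all of them Ube2 genes, where 15.4% of all RefSeq protein-coding genes had one. Of these, 5 were lower (83.3%), beside 62.1% of all coding rows. *Ube2u* had the largest lower difference of the 63 genes: its average went from 10.25 in wild-type to 8.45 in *Ctcf*-cKO, a difference of -1.80 (chr4:100478849-100550147, plus strand). *Ube2t*, the E2 of the Fanconi anaemia DNA crosslink repair pathway, went from 9.08 to 7.64, a difference of -1.44. The X-linked copies shown above were at 7.87 and 6.41 for *Ube2dnl1* (-1.46) and at 7.69 and 6.45 for *Ube2dnl2* (-1.24), so the difference was alike in both. *Ube2d2b*, a short copy of a broadly used E2, went from 9.63 to 8.42 (-1.21). Its signal can include its source gene, since the copies are closely similar. *Ube2d1*, a general E2 that serves many RING ligases, was the higher one, at 7.55 in wild-type against 8.68 in *Ctcf*-cKO (1.13). No gene for ubiquitin itself, a related modifier or an E1 enzyme had a row, out of 20 looked for.

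Among the RING ligases of the Rnf and March families, 15 of 96 RefSeq genes had a row, where 15.4% of all RefSeq protein-coding genes did. Of these, 11 were lower (73.3%, beside 62.1% of all coding rows) and 4 higher. The lower ones include several genes known from spermatids. *Rnf148* and *Rnf133*, testis genes that lie 3.59 kb apart on the minus strand of chromosome 6, were both lower. *Rnf148* went from 9.93 in wild-type to 8.15 in *Ctcf*-cKO, a difference of -1.78, and *Rnf133* went from 10.22 to 8.80, a difference of -1.42. *Rnf151*, a ligase of round spermatids, went from 10.49 to 8.95 (-1.54). *Rnf17*, a Tudor-domain protein of germ-cell granules that spermatid differentiation needs, went from 9.61 to 8.11 (-1.50). *March10*, a microtubule-associated ligase of elongating spermatids, was at 10.97 and 9.75 (-1.22), and *March11*, a membrane ligase of spermatid vesicles, at 9.20 and 7.90 (-1.30). Both March genes with a row, of 11 in RefSeq, were thus lower by similar amounts.

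The other Rnf genes lay on both sides. *Rnf139*, a ligase of the endoplasmic reticulum membrane, went from 11.08 in wild-type to 10.04 in *Ctcf*-cKO, a difference of -1.04. *Rnf19a* and *Rnf19b*, the paired RING-between-RING ligases, differed by -1.04 and -1.12. A pair of coding rows annotated as *Rnf19a* pseudogenes, *Gm7444* (-1.54) and *1700001J11Rik* (-1.57), were lower by more than *Rnf19a*, and probes may be shared between them. *Rnf32* went from 10.85 to 9.52 (-1.33), and its cluster lies over the coding row of *Gm7420* (-1.26). *Rnf125*, which acts on the viral RNA sensor RIG-I, differed by -1.20. The higher genes were *Rnf130*, the mammalian goliath homologue, at 7.51 and 8.99 (1.48), *Rnf213*, a very large ligase linked to moyamoya disease, at 7.23 and 8.66 (1.43), *Rnf13*, a PA-domain ligase of endosomes and lysosomes, at 7.15 and 8.50 (1.35), and *Rnf122* at 5.67 and 6.70 (1.03). The PA-domain ligases therefore split, with *Rnf148* and *Rnf133* lower, for which 1 and 2 body sites of expression are on record, and *Rnf13* and *Rnf130* higher, with 36 and 29.

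Trim proteins combine a RING with B-box and coiled-coil parts, and many end in a SPRY domain that recognises targets. Of 70 RefSeq Trim genes 14 had a row, where 15.4% of all RefSeq protein-coding genes did. In these rows 9 genes were lower and 5 higher, beside 62.1% lower of all coding rows. *Trim69* had the largest lower difference, from 10.26 to 8.58 (-1.68; chr2:122160700-122179027, plus strand). *Trim42* went from 8.78 to 7.25 (-1.53) and *Triml1* from 9.07 to 7.60 (-1.47). *Trim36*, also called haprin and tied to the acrosome reaction of sperm, went from 10.79 to 9.59 (-1.20). *Trim37*, a ligase that limits centriole assembly and is lost in mulibrey nanism, went from 11.71 to 10.71 (-1.0). *Trim66*, a chromatin reader of the TIF1 type, differed by -1.03. The row of *Trim17* also carries the histone gene *Hist3h2a*, so its difference of -1.33 cannot be given to either gene alone.

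The higher Trim genes were led by *Trim7*, first found as a partner of glycogenin, at 7.43 in wild-type against 8.96 in *Ctcf*-cKO (1.53). *Trim25*, the ligase that activates RIG-I in antiviral defence, was at 6.61 and 8.04 (1.43). *Trim35* (1.16), *Trim26* (1.15) and *Trim12c*, a mouse relative of *Trim5* (1.12), completed the group. The SPRY domain did not separate the sides, with 5 lower and 5 higher members. Of the 4 family genes annotated to the innate immune response, *Trim25*, *Trim26* and *Trim35* were higher and *Trim13*, a ligase anchored in the endoplasmic reticulum, was lower (-1.14). Over all coding rows this term was given to 4 lower and 31 higher rows. The term immune system process leaned the other way in the family, with *Rnf125* and *Rnf19b* lower and *Trim25* higher. Over all coding rows it was given to 7 lower and 34 higher rows.

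Adaptors of cullin ligases were lower in 15 of 20 cases (75%, beside 62.1% of all coding rows). None of the 8 Cul genes had a row, where 15.4% of all RefSeq protein-coding genes did. F-box proteins link targets to CUL1, and 8 of their 10 members were lower. *Fbxo43*, known as Emi2, holds back the anaphase-promoting complex in meiosis; it went from 9.16 in wild-type to 7.41 in *Ctcf*-cKO, a difference of -1.75 (chr15:36150060-36164884, minus strand). *Fbxl13*, a subunit of the dynein regulatory complex of sperm tails, went from 10.76 to 9.20 (-1.56). *Fbxo47*, which meiotic chromosome synapsis needs, went from 7.73 to 6.70 (-1.03), and *Fbxo39* from 9.86 to 8.48 (-1.38). *Fbxo15*, a marker gene of embryonic stem cells, differed by -1.22. The higher F-box genes were *Fbxo21*, at 8.87 and 10.41 (1.54), and *Fbxl4*, a mitochondrial protein, at 6.69 and 7.72 (1.03). *Fbxw10* went from 10.73 to 9.09 (-1.64), but its transcript cluster spans 400.7 kb (chr11:62847069-63247770) and lies over the rows of *Cdrt4* (-1.04), *Tekt3* (-1.58) and *Pmp22* (1.15), so its value cannot be given to *Fbxw10* alone.

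Kelch-BTB proteins of the Klhl family, which bring targets to CUL3, were divided. *Klhl10*, the spermatid adaptor whose loss makes male mice sterile, went from 10.51 to 8.98 (-1.53; chr11:100441917-100457024, plus strand). *Klhl41*, better known from skeletal muscle, went from 6.94 to 5.85 (-1.09). Higher were *Klhl23* at 7.51 and 9.02 (1.51), *Klhl5* at 7.33 and 8.41 (1.08) and *Klhl14* at 6.60 and 7.66 (1.06). *Klhl41* and *Klhl23* lie 137.705 kb apart on the same strand of chromosome 2 and differed in opposite directions. Asb proteins carry a SOCS box for CUL5 complexes. Of the 18 RefSeq Asb genes 5 had a row, where 15.4% of all RefSeq protein-coding genes had one. All 5 were lower, beside 62.1% of all coding rows. Their values were -1.46 for *Asb4*, -1.35 for *Asb15*, -1.26 for *Asb9*, which targets creatine kinase, -1.11 for *Asb1* and -1.0 for *Asb17*. *Asb9* went from 9.71 in wild-type to 8.45 in *Ctcf*-cKO, and *Asb17* from 9.45 to 8.45. No Herc gene had a row either (0 of 5).

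Deubiquitinases of the Usp family had 8 rows out of 57 RefSeq genes, where 15.4% of all RefSeq protein-coding genes had one. They were lower in 5 (62.5%) and higher in 3, beside 62.1% lower of all coding rows. *Usp44*, which restrains the anaphase-promoting complex at the spindle checkpoint, went from 10.27 in wild-type to 8.71 in *Ctcf*-cKO, a difference of -1.56. *Usp1*, the enzyme that removes ubiquitin from FANCD2 and PCNA after DNA repair, went from 11.39 to 10.20 (-1.19). *Ube2t*, which helps to add ubiquitin to FANCD2, is thus on the same side as the enzyme that removes it. *Usp2*, which male fertility in mice needs, went from 10.98 to 9.94 (-1.04). *Usp45*, a DNA repair enzyme, went from 7.84 to 6.82 (-1.02). The row of *Usp50* (-1.25) also names *Gm10774*, and its cluster lies within that of *Trpm7* (1.18) on the same strand. It spans 74.365 kb, against 22.411 kb for the RefSeq gene. Its value therefore cannot be given to *Usp50* alone.

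The higher Usp genes were *Usp22*, *Usp9x* and *Usp11*, with 30, 36 and 22 body sites of expression on record. Of the lower genes, *Usp1*, *Usp2* and *Usp45* had 30, 26 and 22, and *Usp44* and *Usp50* had 4 each. *Usp22*, the histone H2B deubiquitinase of the SAGA coactivator, had the largest higher difference of the 63 genes: 8.64 in wild-type against 10.34 in *Ctcf*-cKO, a difference of 1.70 (chr11:61151781-61175059, minus strand). *Usp9x*, an X-linked enzyme with many targets, was at 9.66 and 10.85 (1.19). *Usp11*, also X-linked and a partner of BRCA2, was at 7.06 and 8.18 (1.12). On the X chromosome, the family thus had these 2 higher genes (11.1% of the higher ones) beside 3 lower ones (6.67%), *Ube2dnl1*, *Ube2dnl2* and *Asb9*. Of all coding rows 9.14% lie on X, so the family is not set apart by this.

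Lower and higher family genes also differed in where they are known to be expressed. The array annotation lists, for each row, the body sites in which UniGene holds transcript sequences, a measure made outside these mice. For 44 lower genes with a site the median was 4.5 sites, and for the 18 higher genes it was 24. All coding rows showed the same order, with medians of 3 for lower and 24 for higher rows. Testis was the sole site of 7 lower genes (15.9%; 33% of lower coding rows), namely *Rnf148*, *Rnf151*, *Trim69*, *Trim42*, *Fbxo39*, *Ube2d2b* and *Ube2dnl1*, and of 0 of 18 higher genes (0.677% of higher coding rows). At least 10 sites were listed for 15 of 44 lower genes (34.1%) and for 17 of 18 higher genes (94.4%), *Klhl14* with 9 sites being the remaining one. The shares of all lower and higher coding rows were 25.4% and 89%. *Usp1* and *Rnf139*, each with 30 sites, show that widely expressed genes were found on the lower side too. Sites are found more readily for abundant and well-studied transcripts, so the numbers are a description.

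**Figure D3:**
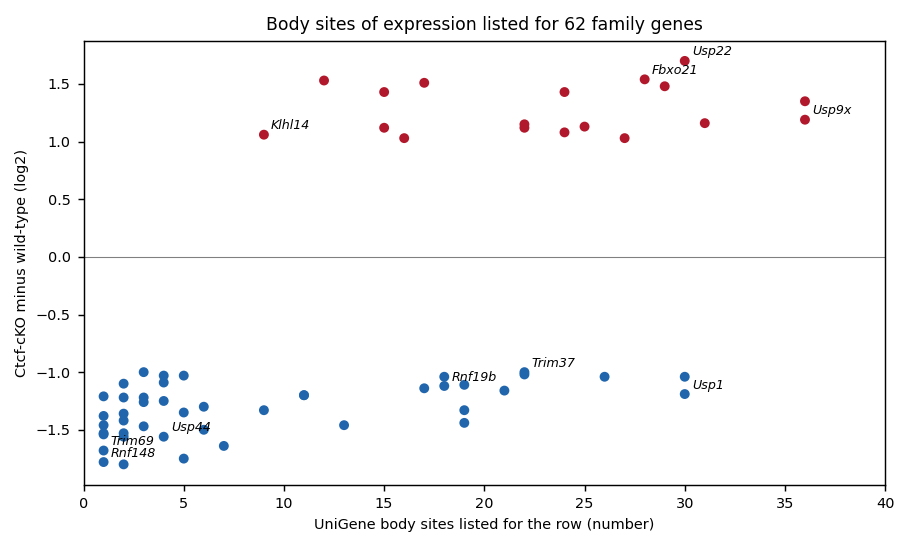
Difference between *Ctcf*-cKO and wild-type (vertical axis, log2) against the number of UniGene body sites listed for the row (horizontal axis), 1 point per gene for the 62 family genes with a site, blue for lower and red for higher. Lower genes crowd at 1 to 7 sites, and the higher genes lie between 9 and 36 sites.

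Promoter windows of 300 bases were given for 46 of the 63 genes, 33 lower and 13 higher. The lower genes had a median of 6 CG dinucleotides per window and the higher genes 19. Medians were 7 over 1 promoter for each of 27025 genes, 6 for the lower coding rows and 18 for the higher coding rows, so the family showed the order of the whole table. Up to 10 CG were found in 20 of 33 lower genes (60.6%) and 4 of 13 higher genes (30.8%), beside 60.4% and 29.2% of the lower and higher coding rows. On the lower side, *Rnf148* (0), *Trim13*, *Trim38*, *Asb9*, *Rnf133* and *Ube2dnl2* (1 each) had the fewest, and *Fbxo30* (47), *Trim37* (41) and *Rnf32* (36) the most. On the higher side *Trim12c* (3) and *Klhl23* (4) had few.

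**Figure D4:**
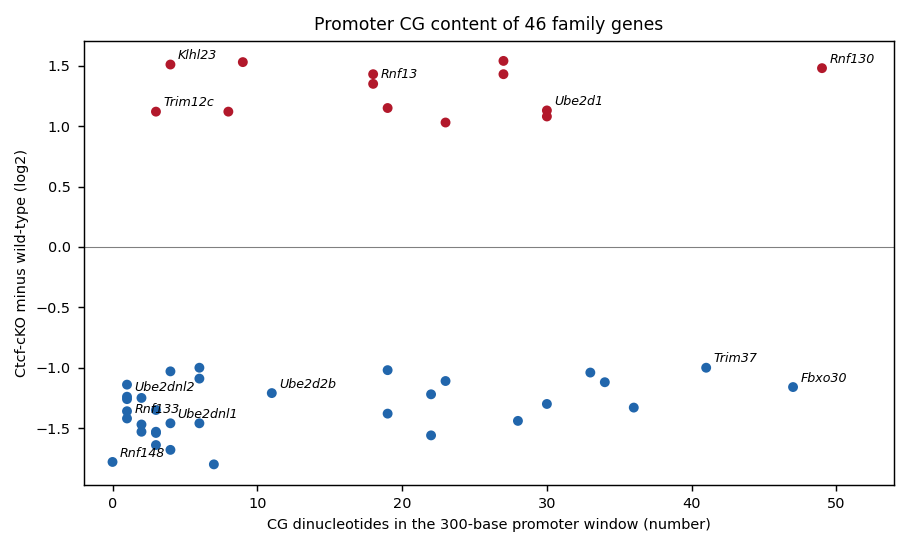
Difference between *Ctcf*-cKO and wild-type (vertical axis, log2) against the number of CG dinucleotides in the 300-base promoter window (horizontal axis), 1 point per gene for the 46 family genes with a window. Blue points are lower and red points higher in *Ctcf*-cKO; lower genes are spread from 0 to 47 CG and higher genes from 3 to 49.

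Short motifs were searched on both strands of the same windows. The CTCF core motif was found in 0 of 33 lower and 0 of 13 higher family genes. It was in 0.269% of lower coding rows, 0.446% of higher coding rows and 0.544% of all promoters. The cAMP response element TGACGTCA, the palindrome that CREM binds in spermatids, was found in 0 lower genes and in 1 higher gene, *Trim26*. It was in 2.56% of lower coding rows, 2.14% of higher coding rows and 1.79% of all promoters. Both motifs are so rare that few or no matches would be found in this many windows. Their counts therefore say nothing of CTCF or CREM at these genes. The MYB core AACTG was found in 21 of 33 lower genes (63.6%) and 4 of 13 higher genes (30.8%), against 46.6% of lower coding rows, 36.8% of higher coding rows and 44.7% of all promoters. A match of these letters is not a bound site, and the windows cover only the region around the start.

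Annotation terms followed the families. A Gene Ontology term naming ubiquitin was given to 41 of the 63 genes, 32 of the 45 lower and 9 of the 18 higher ones. Protein ubiquitination was given to 25 lower and 6 higher genes, and to 46 lower and 16 higher coding rows in all. Protein deubiquitination was given to *Usp44*, *Usp1* and *Usp45* on the lower side and to *Usp11*, *Usp9x* and *Usp22* on the higher side. Spermatogenesis was given to *Rnf151*, *Klhl10* and *Rnf17*, all lower, and over all coding rows to 137 lower and 22 higher ones. The class Complex, for loci whose clusters hold coding and non-coding forms, held 19 of 45 lower genes (42.2%) and 17 of 18 higher genes (94.4%), beside 41.5% and 69.5% of the lower and higher coding rows.

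Other genes of the ubiquitin system were looked up from 6 lists that hold 303 genes outside these prefixes. Of these, 33 had a coding row, and 15.4% of all RefSeq protein-coding genes had one. In these rows 16 genes were lower and 17 higher, beside 62.1% lower and 37.9% higher of all coding rows. The same shares stand beside the counts of each list below, which are small. Proteasome genes had 3 rows for 49 genes: *Psma8*, the core subunit of the testis proteasome, went from 9.89 to 8.54 (-1.35), while *Psma7*, its counterpart in other tissues, was higher by 1.21 and *Psme1*, a proteasome activator subunit, by 1.13. Ligases with other names gave 4 lower and 8 higher genes of 84. *Nedd4* (1.63), *Birc3* (1.45), *Huwe1* (1.09) and *Traf6* (1.09) were among the higher ones and *Uhrf1*, which reads methylated DNA (-1.05), among the lower. Cullin partners and subunits of the anaphase-promoting complex gave 6 lower and 4 higher of 91, with *Cdc20*, the activator of that complex, at -1.32, *Skp2* at -1.03 and *Anapc5* at 1.03. Deubiquitinases outside the Usp family were represented by *Atxn3* (-1.13) and *Brcc3* (1.35), out of 31. Shuttle and ubiquitin-binding proteins gave 4 lower and 2 higher of 28. Their testis forms *Ubqlnl* (-1.52) and *Ubl4b* (-1.36) were among the lower ones, whereas *Ubqln2* (1.47) and *Sqstm1*, the autophagy receptor p62 (1.36), were higher.

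Markers of testis cell types differed between the genotypes as well. Of the listed markers, 9 of 11 of primary spermatocytes were lower (-1.70 to -1.04), as were 9 of 10 of round spermatids (-1.60 to -1.03) and 3 of 11 of elongating spermatids (-1.04 to -1.02). Higher were 6 of 7 Leydig cell markers (1.39 to 2.97), 6 of 8 Sertoli cell markers (1.11 to 2.28) and 3 of 5 peritubular myoid markers (1.06 to 1.42). So were 4 of 7 macrophage markers (1.09 to 2.33) and 2 of 5 endothelial markers (1.12 to 1.13). Of 7 spermatogonial markers only *Kit* had a row, and it was higher (2.28). A single gene does not show how spermatogonia differed. Summed on the linear scale and written as log2, the listed round spermatid markers with a row went from 13.4 in wild-type to 12.1 in *Ctcf*-cKO, the primary spermatocyte markers from 12.9 to 11.6, the Leydig markers from 12.8 to 14.7 and the Sertoli markers from 11.6 to 12.9. Listed germ cell markers without a row include *Prm1*, *Prm2*, *Sycp3* and *Stra8*. The paper reports that *Prm1* and *Prm2* were not down-regulated and that *Sycp3* and *Stra8* levels were not affected. The part of the cell mixture in the family's differences was not tested.

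**Figure D5:**
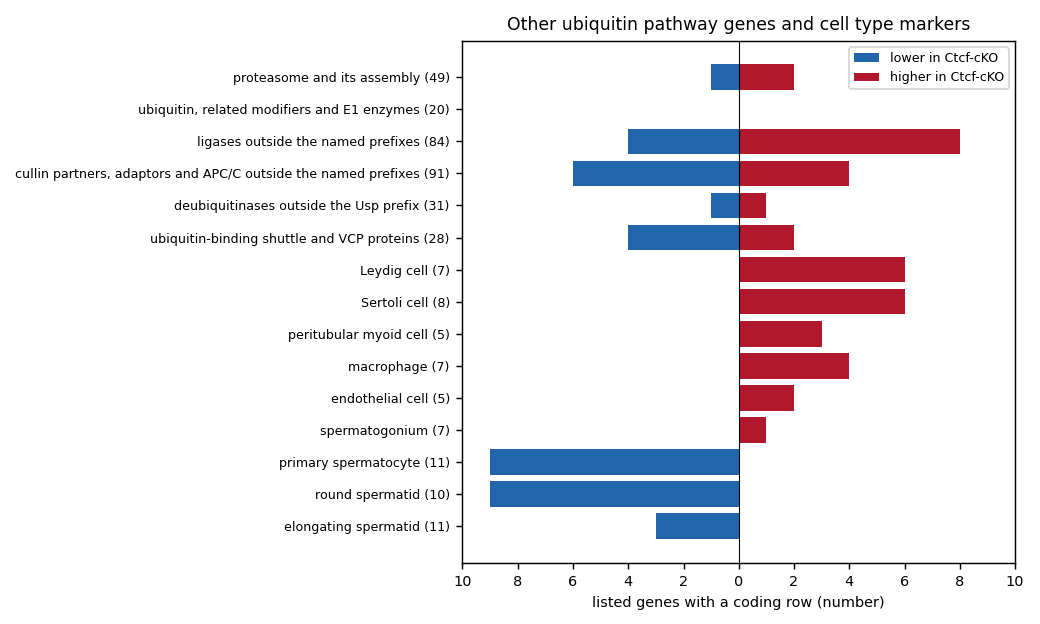
Number of listed genes with a coding row (horizontal axis) that were lower (blue, to the left) or higher (red, to the right) in *Ctcf*-cKO, for 6 lists of other ubiquitin pathway genes and 9 lists of cell type markers, with the number of genes in each list in brackets. Of the markers with a row, those of germ cells from spermatocytes on lie on the lower side and somatic ones on the higher side. Only 3 of 11 elongating spermatid markers have a row. Of the 6 pathway lists, 5 have genes on both sides and the list of ubiquitin and E1 genes has none.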

How the data were processed

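RNA of 3 wild-type mice and 4 mice of the *Ctcf*-cKO genotype, taken from seminiferous tubules (150 ng each), was hybridized to MTA 1.0 arrays. The submitters' processing notes name Affymetrix Expression Console 1.4.1, RMA, Transcriptome Analysis Console 3.0 and mm10. RMA brings the arrays to a shared distribution of log2 signals, so the values are relative to the array and not to a cell. The deposited table gives, for each transcript cluster, the authors' bi-weight average log2 signal per genotype. It also holds their fold change, analysis of variance p-value and false discovery rate, which were not used. The authors kept rows past a linear fold of 2 and a p of 0.05. There were 0 columns of single arrays, so no model, error, pairing or test could be computed. How few arrays there were bounds the precision of each average.

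Here, decimal commas were converted, the averages were subtracted in Python 3.11.15 with pandas 2.3.3 and numpy 2.4.6, and figures were drawn with matplotlib 3.10.9. The exact binomial interval came from scipy 1.17.1. The scripts were tested on simulated data. Positions were set against RefSeq GRCm38.p6, and March10 and March11 were matched there under their current names. Where a gene had several promoter windows, the one nearest to the cluster's 5′ end was used. Any family gene could be named, as could any pathway or marker gene with a row. The prefixes and gene lists were chosen with earlier results of these data known. Alternatives were a stricter linear fold (3), a floor of 6 on the log2 average, any symbol of a row, equal rows counted once, re-centring and the class Coding alone.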

Additional observations from a re-analysis of the deposited data

How the results depend on the processing

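The direction and the counts of the family stayed within 1.5 times of those reported under a floor of 6 on the higher of both log2 averages, with any symbol of a row and with equal rows counted once. A linear fold of 3 left 5 lower and 1 higher genes (83.3% lower, medians -1.75 and 1.70), because fewer genes pass it. Subtracting the median difference of the table, -1.145, left 32 genes below and 31 above it (50.8% below), with medians of -0.11 and 2.32 for the lower and higher genes as reported. Of all lower coding rows 76.7% stayed below it, beside 71.1% of the lower family genes. Because the fold limit places this median among the lower rows, the split says nothing of direction. The class Coding alone held 26 lower and 1 higher genes (96.3% lower, medians -1.36 and 1.06). Some alternatives were chosen after seeing the data. Leaving out members that overlap another coding row and using the current RefSeq symbol each gave a lower median of -1.25. Counting the Ube2dnl copies once gave -1.28. No paired analysis was possible because the table has no values of single mice, and leaving out each mouse was not run for the same reason. Signal over background is not in the table, so low averages could not be judged against it.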

Other observations

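Some family genes had non-coding rows inside their transcript clusters. On the same strand there were 9 such rows over 8 genes, 4 lower and 4 higher, and all 9 differed in the direction of the gene they lie in. The same share over all coding rows is not given, so the count is not a trait of the family. They include rows within *Usp9x* (1.54, beside 1.19 for the gene), *Usp22* (1.18 beside 1.70), *Rnf13* (1.09 beside 1.35), *Fbxo21* (*Gm19648*, 1.11 beside 1.54), *Fbxl13* (-1.40 beside -1.56), *Rnf32* (-1.44 beside -1.33) and *Rnf17* (*Gm24392*, -1.27 beside -1.50). Such rows can read the pre-mRNA of the gene, and this was not tested. On the opposite strand there were 3 rows. Over *Trim35* (1.16) lies *1700001G11Rik*, which was lower (-1.03, from 8.26 to 7.23), and *Gm14526* (-2.12) and *4930452L02Rik* (-1.02) lie within the long *Fbxw10* cluster.

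Chromosome 11 held 12 of the 63 family genes (19%), 7 lower and 5 higher. It holds 44 of the 411 RefSeq genes with these prefixes (10.7%), 7.35% of all RefSeq protein-coding genes and 5.36% of the coding rows. The lower ones are *Fbxw10*, *Klhl10*, *Fbxo39*, *Trim17*, *March10*, *Fbxo47* and *Trim37*, and the higher ones *Usp22*, *Trim7*, *Rnf130*, *Trim25* and *Rnf213*. They are spread over the chromosome, from *Trim7* at 48826138 to *Rnf213* at 119487425. No test was made, since the pattern was noticed in these data.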
